A study of Mus musculus with 8 samples.

Results

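The mitochondrial ribosomal protein genes of mouse granulosa cells are described here. They were taken as every row whose name begins with Mrpl (large subunit) or Mrps (small subunit) and a digit, with pseudogene rows left out, which gave 78 genes of 35087 named rows, 49 Mrpl and 29 Mrps. Granulosa cells, the somatic cells around the oocyte, were laser-microdissected from ovary cryosections, and their polyadenylated RNA was amplified by the Smart-seq2 method and sequenced. Both groups carried Hif1a flox/flox, so that Cre can excise part of the gene for HIF1 alpha, a transcription factor subunit that oxygen destabilises. In the cKO group (2 libraries) Cre came from Foxl2-CreERT2, which is active after tamoxifen in cells that use the granulosa gene Foxl2, and the WT group (6 libraries) was Hif1a flox/flox without Cre. Females were bred up to 3 weeks of age, given 100 mg/kg tamoxifen daily for 5 days, and their ovaries were collected 7 days after tamoxifen ended. The genotype field of the cKO samples reads knockdown, and the library names of all 8 samples begin with cKO, against the titles and genotype labels of the 6 WT samples, which were followed here. Which animal or follicle stage each library came from is not in the labels, so the p-values measure only the spread between these libraries, and they are too small if libraries share an animal.

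Mitochondria hold their own ribosome, which translates the few proteins encoded by the mitochondrial genome, all of them subunits of the respiratory chain and ATP synthase. Its rRNAs come from the mitochondrial genome, while all of its proteins are encoded in the nucleus, made in the cytosol and imported. Many of these proteins descend from bacterial ribosomal proteins and others were added in the mitochondrial lineage. In the ovary this machinery matters for fertility: variants in human MRPS22 and MRPL50 and in several mitochondrial tRNA synthetase genes are known in premature ovarian insufficiency.

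The libraries held 2054739 and 651656 reads on named genes in cKO and from 1594979 to 4719468 in WT. Hif1a, the targeted gene, had 22.2 and 13.6 CPM in the libraries labelled cKO and 35.3 to 106 CPM in WT (log2 fold change -1.84 ± 0.58, SE, edgeR adjusted p = 0.369). CPM is the read count relative to the TMM-scaled library size. The 10 granulosa marker genes took 0.469% and 0.204% of reads in cKO and 0.425 to 4.50% in WT, and all 10 had reads in every library. Summed markers of oocytes, theca, stroma, endothelium, leukocytes and red cells each took at most 0.200% of reads in any library, the highest being oocyte markers in WT replicate 6. In such bulk samples, fewer granulosa cells and less RNA per cell cannot be told apart.

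All 78 genes had reads in every library and all passed the filter on low counts. They were lower in cKO with few exceptions, and none passed the test across all genes. Summed over the genes, the normalised read count was 5267 and 2587 CPM in the cKO libraries (replicates 1 and 2). In WT replicates 1 to 6 it was 4029.99, 9577, 5639.6, 7766, 7244 and 8619 CPM. The means were 3927 ± 1895 CPM (SD, n = 2) and 7146 ± 2023 CPM (SD, n = 6). The groups overlapped, since WT replicate 1 lay between the cKO libraries, while cKO replicate 2 was below every WT library. Of all reads on named genes, the 78 genes took 0.508% and 0.292% in cKO and 0.462 to 0.860% in WT.

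**Figure D1:**
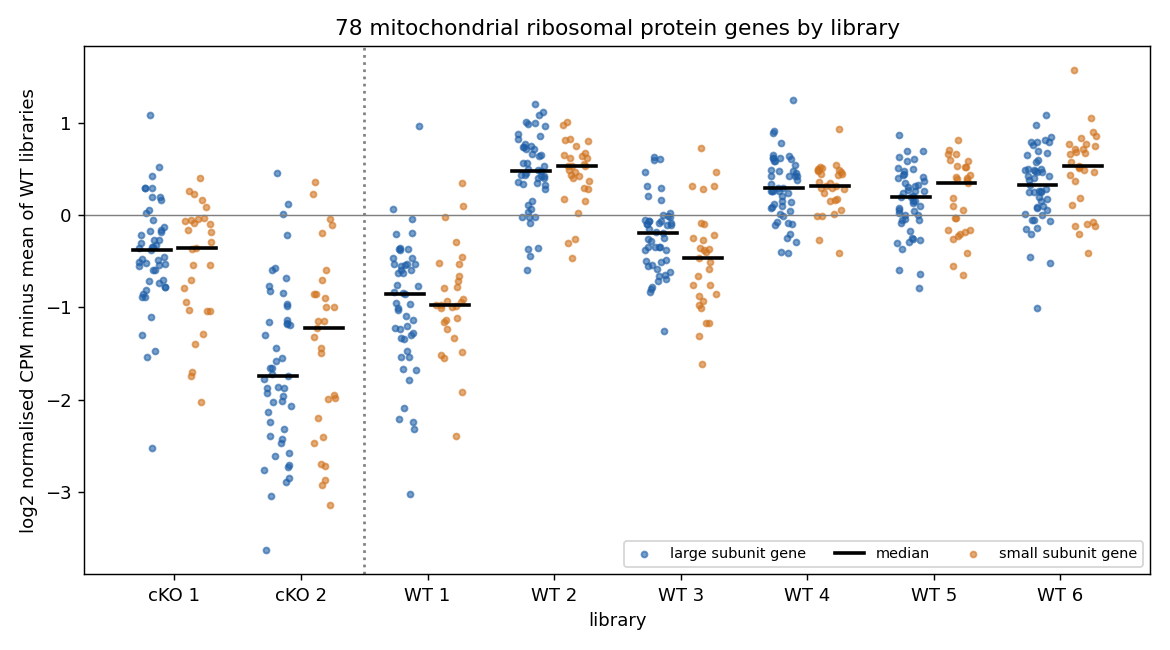
Log2 normalised read count (CPM) of each of the 78 genes in each library, minus that gene's mean over the 6 WT libraries. Points are genes, blue for the large and orange for the small subunit by name, and black bars are medians. The medians are lowest in cKO 2, then in WT 1, and those of cKO 1 lie near those of WT 3.

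Gene by gene, 74 of 78 had a negative log2 fold change (cKO against WT), where 52.7% of the 15102 genes tested did. The median over the 78 genes was -0.93 (range -2.87 to 0.57), and over all genes tested -0.077. With DESeq2's size factors the median of all genes was 0.049 and that of the 78 genes -0.85, with 73 lower, so the distance between them moved little. In edgeR's quasi-likelihood test no gene of the 78 passed an adjusted p of 0.05, nor did any of the 15102 (0%). At an unadjusted p under 0.05, 19 of the 78 (24.4%) were lower, against 8.89% of all genes tested, and 0 were higher, against 3.4%. DESeq2 gave 76 of the 78 an adjusted p and called 4 lower, Mrpl20, Mrpl40, Mrps12 and Mrps2, where it called 3.08% of its genes lower and 0.387% higher. EdgeR without the filter called the same 4 lower and 0 higher, against 1.6% and 0.288% of all genes. In 12 genes (15.4%) both cKO libraries lay below all WT libraries, against 6.41% of all genes tested. In 0 members did both lie above all WT libraries, against 6.02%.

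A fitted difference of at least 1 log2 unit lower was found in 33 of the 78 genes, against 21.2% of all genes tested. Adjusted p-values in edgeR ran from 0.369 to 0.996 over the 78 genes.

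The libraries shared this pattern unevenly. In 55 of the 78 genes cKO replicate 2 was the lowest of the 8 libraries, against 23.8% of all genes tested, and it held only 1904 reads on the 78 genes, with 16 of them under 10 reads. Replicate 1 of cKO was below the WT median in 63 of 78 genes, against 51.5% of all. Among WT, replicate 1 was the lowest library in 56 of 78 genes, against 29.5% of all, and it was below cKO replicate 1 in 62 genes (50.8% of all). Without cKO replicate 2 the median over the 78 genes was -0.59 against -0.34 for all genes, with 4 of the 78 lower at an unadjusted p under 0.05 against 3.5% of all genes, a share near the background. Without cKO replicate 1 the median was -1.80 against -0.27 for all genes, with 41 of the 78 lower at that p against 10.2% of all. Either fit leaves a single cKO library, which is assumed to vary like the WT libraries, whose spread alone sets the p-values. Without WT replicate 1 the median was -1.02 against -0.075, with 35 of the 78 lower at that p against 13% of all genes. Without cKO replicate 2 and WT replicate 1 together, left out after seeing that they were the lowest in the summed level, it was -0.66 against -0.25 for all genes, with 69 of 78 lower. Adding the number of detected genes to the fit, a number that separates the groups by itself (12120 and 12847 in cKO, at least 13597 in WT), gave -0.55 against -0.26 for all genes.

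Other measures moved with these libraries. The row of Lars2, the mitochondrial leucyl-tRNA synthetase gene, took 11.7% of reads in cKO replicate 2 and 5.14% in WT replicate 1, the libraries lowest in the summed genes, and from 0.355% to 0.880% in the others. Reads of this row can include reads of mitochondrial rRNA, which was not tested, so the level of Lars2 mRNA is uncertain. Leaving Lars2 out of the library sizes, also chosen after seeing the data, left the median at -0.93. Transcripts of the mitochondrial genome took 8.87% and 10.5% of reads in cKO and 1.42 to 3.65% in WT. This share separated the groups, with WT replicate 1 at 3.26%, among the other WT libraries. The summed granulosa markers, of which Inha held the most reads in every library, were lowest in cKO replicate 2 and, within WT, in WT replicate 1 (0.425%). Single markers differed in this: of the WT libraries, replicate 6 was the lowest for Foxl2 and Esr2 and replicate 3 for Amh and Amhr2, and Amh had 223 CPM in cKO replicate 2 and 2.33 CPM in WT replicate 3. The part of granulosa content and RNA quality in the levels of the 78 genes was not tested.

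The promoters were read because most of the genes were lower together. RefSeq promoter windows on GRCm38.p6, from 250 bases before to 50 bases after the start, were found for 69 of the 78 genes (75 windows). Letters known for factors of mitochondrial or HIF target genes were searched on both strands, with matches in capitals, except CCAAT, which is left in lower case. The 3 windows shown, each 5′ to 3′ on the gene's strand, carry the different matches and belong to genes in which both cKO libraries were below all WT libraries.
Mrps12 (chr7:28741772-28742071, minus strand): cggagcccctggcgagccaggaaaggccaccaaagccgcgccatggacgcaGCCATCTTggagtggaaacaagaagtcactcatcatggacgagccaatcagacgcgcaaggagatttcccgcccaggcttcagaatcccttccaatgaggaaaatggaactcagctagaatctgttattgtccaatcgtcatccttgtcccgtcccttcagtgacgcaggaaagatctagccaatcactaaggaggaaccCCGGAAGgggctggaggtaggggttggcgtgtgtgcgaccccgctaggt
Mrpl9 (chr3:94443086-94443385, plus strand): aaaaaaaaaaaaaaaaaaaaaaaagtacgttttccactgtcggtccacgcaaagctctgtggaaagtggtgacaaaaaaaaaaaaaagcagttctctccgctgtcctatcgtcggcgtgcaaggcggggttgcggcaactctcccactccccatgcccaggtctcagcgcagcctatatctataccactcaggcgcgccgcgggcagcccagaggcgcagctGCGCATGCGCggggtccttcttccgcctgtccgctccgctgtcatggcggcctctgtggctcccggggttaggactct
Mrpl20 (chr4:155802628-155802927, plus strand): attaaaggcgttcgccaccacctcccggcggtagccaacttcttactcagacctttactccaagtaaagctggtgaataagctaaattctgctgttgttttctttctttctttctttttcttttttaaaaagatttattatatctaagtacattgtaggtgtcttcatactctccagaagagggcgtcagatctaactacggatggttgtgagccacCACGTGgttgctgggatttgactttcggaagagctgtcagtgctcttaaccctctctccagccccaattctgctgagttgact
In Mrps12 the capitals are the YY1 letters AAGATGGC, on the opposite strand, and the ETS letters CCGGAAG, bound by GABP among others. In Mrpl9 they are the full NRF1 letters, a palindrome, as printed. In Mrpl20 they are CACGTG, which holds the HIF core ACGTG on both strands and is also the E-box of other factors.

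ETS letters were in 34.7% of the windows of the 78 genes, against 15.5% of the windows of all genes tested, 31% of those of cytosolic ribosomal protein genes and 11.8% of those of complex I genes. YY1 letters were in 16% against 4.01% of all, 9.52% for cytosolic ribosomal protein genes and 20.6% for complex I genes, and the full NRF1 letters in 4% against 1.85%. The HIF core was in 25.3% against 23.96%, close to the share in all genes tested, and CCAAT in 40% against 37.5%. The 16 members with the HIF core had a median of -1.13 and the 53 without it -0.92. The medians were also -1.13 with YY1 letters (12 genes) and -0.94 without, while NRF1 letters had -0.87 with (3 genes) and -0.95 without. For ETS letters the medians were -0.95 with (26 genes) and -0.94 without, and for CCAAT -0.94 and -0.94. A match of letters is not a binding site, and these shares were not tested.

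Among the 49 large subunit genes by name, 46 were lower (median log2 fold change -0.94), where 52.7% of all genes tested were. At an unadjusted p under 0.05, 11 (22.4%) were lower, against 8.89% of all genes tested. Mrpl20 (chromosome 4, 155802878 to 155809975, plus strand) encodes a protein that binds the large rRNA and has a bacterial counterpart. Its window is the one with CACGTG. It had 34.8 CPM in cKO replicate 1, 14.9 CPM in cKO replicate 2 and between 49.7 and 139.99 CPM in WT (median 126). Both cKO libraries were below all WT libraries, and the log2 fold change was -2.08 ± 0.57 (SE, edgeR adjusted p = 0.369, DESeq2 adjusted p = 0.016).

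Mrpl40 (chromosome 16, 18872018 to 18876862, minus strand), which encodes a protein without a bacterial counterpart, showed the most negative value of the 78 genes. It had 7.07 CPM in cKO replicate 1, 6.79 CPM in cKO replicate 2 and between 8.74 and 75.02 CPM in WT (median 64.4), which put the fitted difference at -2.87 ± 0.82 on the log2 scale (SE, adjusted p = 0.369 in edgeR and 0.028 in DESeq2). The cKO values rested on 19 reads together. WT replicate 1, at 8.74 CPM, lay just above cKO and far below WT replicates 2 and 4 to 6.

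Mrpl9 had 16.2 CPM in cKO replicate 1, 13.6 CPM in cKO replicate 2 and between 29.1 and 55.8 CPM in WT (median 39.6), again without overlap, and a log2 fold change of -1.45 ± 0.51 (SE). Mrpl16, whose protein lies close to the peptidyl transferase centre, had 27.3 CPM in cKO replicate 1, 6.79 CPM in cKO replicate 2 and between 34.98 and 60.4 CPM in WT (median 43.5, log2 fold change -1.36 ± 0.55 SE), and its groups did not overlap either. Mrpl11 encodes a protein at the base of the stalk where translation factors bind, and had 32.8 CPM in cKO replicate 1, 8.15 CPM in cKO replicate 2 and between 17.5 and 97.7 CPM in WT (median 75.7, log2 fold change -1.70 ± 0.68 SE). Here WT replicate 1 was below cKO replicate 1, as it also was for Mrpl33, with 57.03 CPM in cKO replicate 1, 33.96 CPM in cKO replicate 2 and between 44.3 and 169 CPM in WT (median 151, log2 fold change -1.54 ± 0.55 SE). The remaining large subunit genes in which both cKO libraries were below all WT libraries were Mrpl3, Mrpl4, Mrpl13, Mrpl44 and Mrpl45, named for this property after their values were seen, at -1.08, -0.98, -0.94, -1.27 and -0.94. Mrpl44 rested on 19 cKO reads together. Its cKO replicate 2, where 1 read is 1.36 CPM, had 9.51 CPM against 9.84 CPM in WT replicate 1. Mrpl45 encodes a protein near the tunnel exit that anchors the ribosome to the inner membrane.

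Other large subunit genes of known role overlapped between the groups. Mrpl12 encodes the stalk protein that recruits translation factors, and had 128 CPM in cKO replicate 1, 55.7 CPM in cKO replicate 2 and between 97.3 and 303 CPM in WT (median 206, log2 fold change -1.05 ± 0.56 SE). Mrpl58 encodes a peptidyl-tRNA hydrolase built into the ribosome that releases chains from stalled ribosomes, and had 68.6 CPM in cKO replicate 1, 31.2 CPM in cKO replicate 2 and between 51.9 and 202 CPM in WT (median 119, log2 fold change -1.28 ± 0.54 SE). Mrpl50 had 17.7 CPM in cKO replicate 1, 5.43 CPM in cKO replicate 2 and between 2.73 and 52.4 CPM in WT (median 32.97, log2 fold change -1.32 ± 0.85 SE), and its lowest library was WT replicate 1. The edgeR adjusted p was 0.453, 0.380 and 0.532 for these genes.

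**Figure D2:**
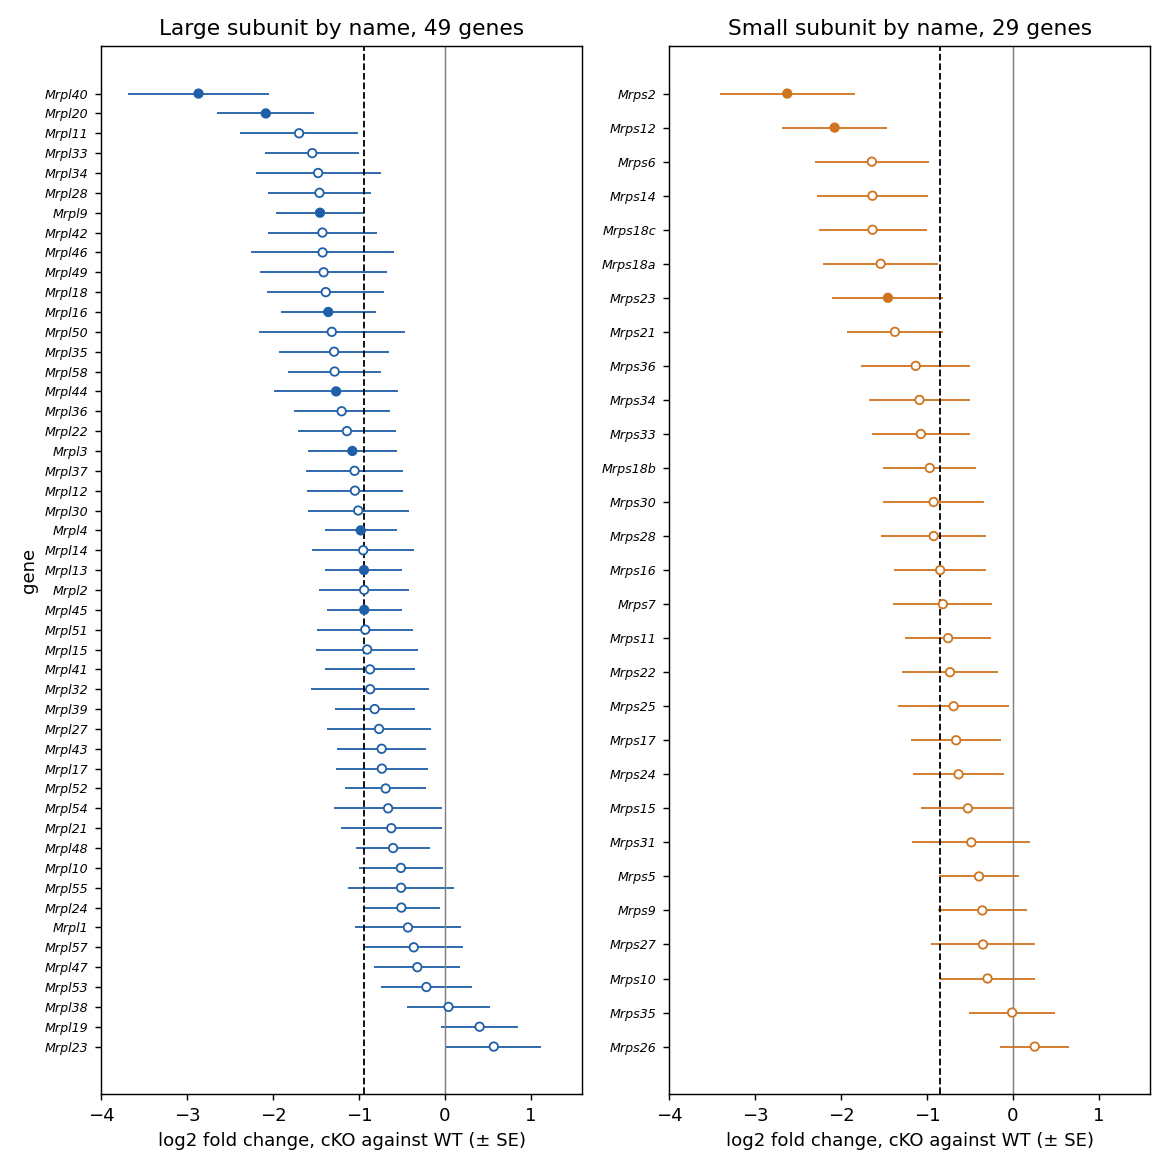
Log2 fold change (cKO against WT) ± SE of the 78 genes from edgeR's fit, large subunit on the left and small subunit on the right. Filled points mark the 12 genes in which both cKO libraries were below all WT libraries, and dashed lines are the medians, -0.94 and -0.85.

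Among the 29 small subunit genes by name, 28 were lower, with a median of -0.85, where 52.7% of all genes tested were lower. At an unadjusted p under 0.05, 8 (27.6%) were lower, against 8.89% of all genes tested. Mrps12 (chromosome 7, 28739641 to 28741820, minus strand) encodes the protein at the decoding centre, where codons are read, and its window holds the ETS and YY1 letters. It had 36.3 CPM in cKO replicate 1, 10.9 CPM in cKO replicate 2 and between 47.5 and 156 CPM in WT (median 103), without overlap. The log2 fold change was -2.07 ± 0.61 (SE, edgeR adjusted p = 0.369, DESeq2 adjusted p = 0.028).

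Mrps2 (chromosome 2, 28468066 to 28471178, plus strand) encodes a protein of bacterial descent in the small subunit. It had 10.1 CPM in cKO replicate 1, 5.43 CPM in cKO replicate 2 and between 20.6 and 122 CPM in WT (median 42.3), which put the fitted difference at -2.63 ± 0.78 on the log2 scale (SE, adjusted p = 0.369 in edgeR and 0.037 in DESeq2). The groups did not overlap, the cKO values rested on 24 reads, and WT replicate 6 was far above the other WT libraries. The third small subunit gene without overlap was Mrps23, named for this property after its values were seen, at -1.45. It rested on 25 cKO reads together, with 10.6 CPM in cKO replicate 1 against 11.5 CPM in WT replicate 1.

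Mrps14 (-1.63 ± 0.64, SE), Mrps6 (-1.64 ± 0.66) and Mrps21 (-1.37 ± 0.56) were lower with 1 WT library, replicate 1 or 3, below the higher cKO value. Mrps14 had 22.2 CPM in cKO replicate 1, 32.6 CPM in cKO replicate 2 and between 29.1 and 128 CPM in WT (median 100.04). Mrps21 had the most reads per length of the small subunit genes, with a mean of 313 ± 169.8 TPM in cKO (SD, n = 2) and 824 ± 237 TPM in WT (SD, n = 6). TPM, the authors' level per transcript length, allows genes to be compared with each other. By the mean TPM over all 8 libraries the next were Mrps24 and Mrps15, which in WT were within the spread of Mrps11 and Mrps12, at -0.63 ± 0.53 and -0.52 ± 0.54 on the log2 scale of the difference, and both overlapped between the groups.

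The mouse has 3 genes for relatives of the bacterial ribosomal protein S18, and they occupy different places in the ribosome. Mrps18c had 24.2 CPM in cKO replicate 1, 10.9 CPM in cKO replicate 2 and between 17.5 and 80.9 CPM in WT (median 65.8, log2 fold change -1.63 ± 0.63 SE). Mrps18b had 30.3 CPM in cKO replicate 1, 17.7 CPM in cKO replicate 2 and between 22.4 and 79.4 CPM in WT (median 45.9, log2 fold change -0.97 ± 0.54 SE). Mrps18a, whose protein sits in the large subunit despite its name, had 22.7 CPM in cKO replicate 1, 40.8 CPM in cKO replicate 2 and between 20.2 and 158 CPM in WT (median 97.9, log2 fold change -1.54 ± 0.67 SE). In each of these genes 1 WT library, replicate 1, was below the higher cKO value.

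Mrps7 and Mrps22, genes of the small subunit, had -0.82 ± 0.58 and -0.73 ± 0.56 (SE). For Mrps22 the order of the cKO libraries was reversed, with 19.7 CPM in cKO replicate 1, 44.8 CPM in cKO replicate 2 and between 25.2 and 71.8 CPM in WT (median 60.00). Mrps30, which encodes another protein of the large subunit despite its name, was at -0.92 ± 0.59 with 46.9 CPM in cKO replicate 1, 9.51 CPM in cKO replicate 2 and between 30.6 and 87.9 CPM in WT (median 52.8). Mrps36 was at -1.13 ± 0.63 with 56.5 CPM in cKO replicate 1, 9.51 CPM in cKO replicate 2 and between 36.1 and 97.4 CPM in WT (median 88.9). Its protein is known as a subunit of the oxoglutarate dehydrogenase complex and not of the ribosome.

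**Figure D3:**
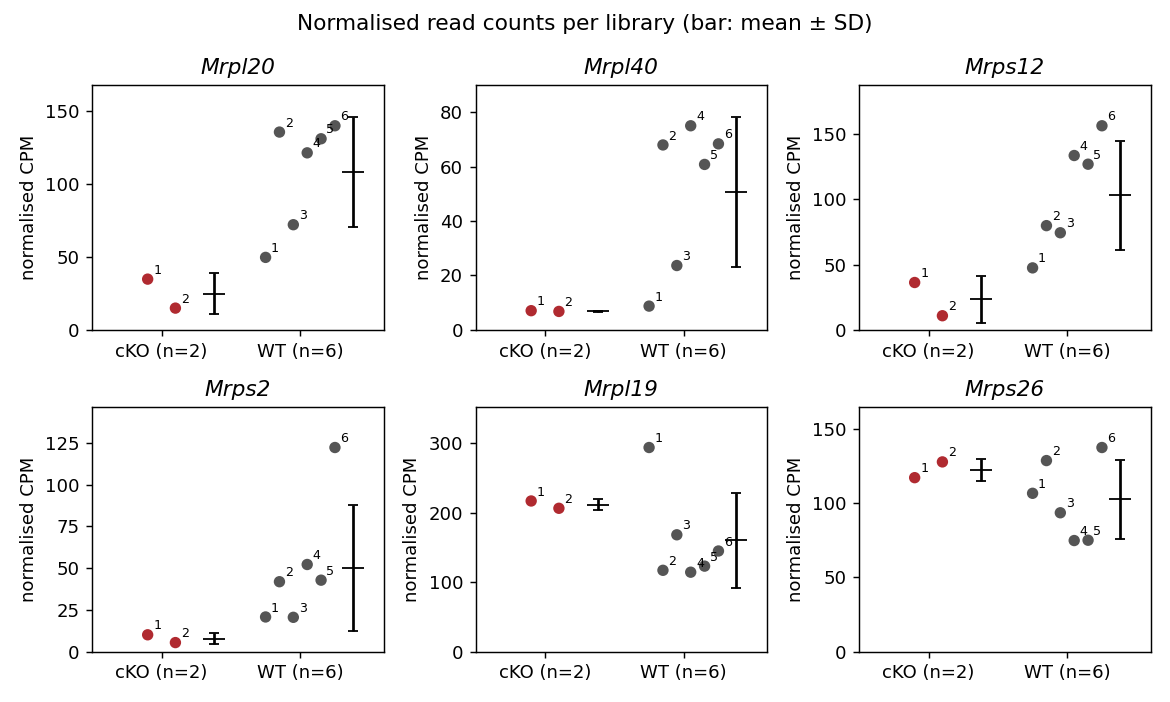
Normalised read count (CPM) of 6 genes in each library, with cKO in red, WT in grey and the replicate number beside each point; bars are means ± SD. In Mrpl20, Mrpl40, Mrps12 and Mrps2 both cKO points lie below all WT points, and in Mrpl19 and Mrps26 they lie within the WT range.

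The subunits were compared with each other. The difference of their medians, large minus small, was -0.095 on the log2 scale, within the SD of 0.18 of the same difference over the WT libraries. With Mrps18a and Mrps30 counted in the large subunit and Mrps36 left out, it was -0.16 (51 and 26 genes). Its sign was not stable: it was 0.055 with limma on TPM and 0.041 with detected genes as a covariate. The summed large to summed small subunit CPM was 2.11 and 1.63 in cKO and 1.86 to 2.22 in WT. So cKO replicate 1 lay within the WT range and cKO replicate 2 below it. In summed TPM the ratio was 2.29 and 1.92 in cKO and 1.80 to 2.19 in WT, where cKO replicate 2 lay within the WT range and cKO replicate 1 above it. The ratio of the group means, cKO against WT, was 0.946 in CPM and 1.05 in TPM, so its direction depended on the unit. In neither unit did both cKO libraries lie outside the WT range.

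Genes listed here as encoding proteins with a bacterial counterpart had a median of -0.96 (44 of 46 lower, 14 at an unadjusted p under 0.05). Those listed as without had -0.84 (30 of 32 lower, 5 at an unadjusted p under 0.05). Of all genes tested 8.89% passed that p as lower, and 17.1% of the genes within the interquartile ranges of the 78 genes for both effective length and mean CPM. Mrpl47 (log2 fold change -0.32) and Mrpl55 (-0.51) were counted among those without, although both proteins have known bacterial relatives. These counts and medians therefore hold only for the lists as drawn, and the difference between the lists was not tested.

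The 4 genes higher in cKO were Mrpl23, Mrpl19, Mrpl38 and Mrps26, and none was past an unadjusted p of 0.05. Mrpl19 had 217 CPM in cKO replicate 1, 206 CPM in cKO replicate 2 and between 114 and 294 CPM in WT (median 134), a fitted difference of 0.40 ± 0.45 (log2 ± SE, adjusted p = 0.723 in edgeR), with WT replicate 1 the highest library. Mrps26 had 117 CPM in cKO replicate 1, 128 CPM in cKO replicate 2 and between 74.8 and 137 CPM in WT (median 100.02, log2 fold change 0.25 ± 0.40 SE), and Mrpl38 had 109 CPM in cKO replicate 1, 89.7 CPM in cKO replicate 2 and between 54.3 and 176 CPM in WT (median 86.6, log2 fold change 0.042 ± 0.48 SE). In all of these the cKO libraries lay within the WT range.

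Mrpl23, whose protein lies at the exit of the peptide tunnel, had 44.9 CPM in cKO replicate 1, 23.1 CPM in cKO replicate 2 and between 10.6 and 42.4 CPM in WT (median 20.7), a fitted difference of 0.57 ± 0.55 (log2 ± SE, adjusted p = 0.676 in edgeR). Most reads of this gene and its pseudogene copy were assigned to the copy: the Mrpl23-ps1 row held 79.6% and 73.4% of their summed reads in cKO and 86.4% to 93.2% in WT. Summed, a step added after seeing the data, they had 221 and 86.9 CPM in cKO and 154 to 449.9 CPM in WT. The log2 fold change then turned to -0.55 (edgeR adjusted p = 0.680), so the direction of Mrpl23 is uncertain. The other 4 pseudogene rows of the family held at most 9 reads over all libraries. Exons of 33 of the 78 genes overlap those of another gene, whose reads cannot be told apart without strand. Their median was -0.93, and that of the other 45 was -0.94.

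Transcript length was examined because the genes are short. The effective length, the number of positions in a transcript from which a fragment could come, had a median of 272 bases over the 78 genes and 714 over all genes tested. It ranged from 31.4 bases in Mrpl52 to 2667 in Mrpl11, with 9 genes under 100 bases. Over all genes tested, shorter genes had lower values: the median log2 fold change was -0.40 in the shortest decile and 0.28 in the longest (Spearman's rho 0.18 across 15102 genes of the same libraries). Across the 78 genes rho was 0.044. By decile the median of the members was -0.97 in the shortest (27 members), -0.92 in the second (16), -1.20 in the third (5), -0.78 in the fourth (8) and -0.98 in the fifth (8). It was -0.82, -0.82 and -0.68 in the sixth to the eighth (3, 5 and 4 members), and 1 member lay in each of the last deciles. In each decile it was below the median of all genes. All genes tested within the members' interquartile ranges of both effective length and mean CPM (1226 genes) had a median of -0.31, with 64.4% lower, 17.1% lower at an unadjusted p under 0.05, and 11.1% with both cKO libraries below all WT libraries.

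With the effective length of each gene in each library as an offset, the median of the 78 genes was -1.003, with 74 lower. For some genes the length moved between libraries: that of Mrpl24 lay between 191 and 759 bases and that of Mrps14 between 196 and 669, both chosen after their values were seen. The highest level per length was that of Mrpl52, at 673 ± 116 TPM in cKO (SD, n = 2) and 987 ± 184 TPM in WT (SD, n = 6), and it rests on that very short effective length. Mrpl54 and Mrpl14 had 436 ± 187 and 373 ± 109 TPM in WT (SD, n = 6), which do not differ beyond their spread. Their log2 fold changes were -0.69 ± 0.47, -0.66 ± 0.63 and -0.95 ± 0.59 (SE) in the order Mrpl52, Mrpl54, Mrpl14.

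Genes around the ribosome did not share one direction. Of the 5 ribosomal proteins without an Mrp name, 4 were lower (median -0.46). Chchd1, of the small subunit, had 41.4 and 20.4 CPM in cKO and 27.9 to 109 CPM in WT (log2 fold change -1.38 ± 0.55, SE). Aurkaip1, also of the small subunit, had 108 and 38.04 CPM in cKO and 85.3 to 155 CPM in WT (log2 fold change -0.65 ± 0.47, SE).

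Factors that assemble the ribosome or modify its rRNA had a median of 0.18, with 7 of 21 lower. Gtpbp10, a GTPase of large subunit maturation, had 38.9 and 46.2 CPM in cKO and 10.1 to 17.4 CPM in WT (log2 fold change 1.55 ± 0.47, SE), with both cKO libraries above all WT libraries (edgeR adjusted p = 0.369, DESeq2 adjusted p = 0.038). Malsu1, an assembly factor of the same subunit, had 21.2 and 12.2 CPM in cKO and 24.6 to 58.6 CPM in WT (log2 fold change -1.22 ± 0.53, SE), with both cKO libraries below all WT libraries.

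Translation factors had a median of -0.30 (10 of 13 lower). Tufm, the elongation factor that brings tRNAs to the ribosome, had 18.7 and 17.7 CPM in cKO and 15.8 to 165 CPM in WT (log2 fold change -2.35 ± 0.79, SE), and WT replicate 1 was below both cKO libraries. Oxa1l, the insertase that takes new chains into the inner membrane, had 41.4 and 52.98 CPM in cKO and 79.2 to 139.99 CPM in WT (log2 fold change -1.23 ± 0.44, SE), without overlap. Both had an edgeR adjusted p = 0.369.

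Mitochondrial tRNA synthetases had a median of 0.19 (6 of 17 lower). The uncertain Lars2 row was counted among those higher (log2 fold change 2.20 ± 1.09, SE). Fars2, the phenylalanyl-tRNA synthetase gene, had 5.05 and 0 CPM in cKO and 8.74 to 67.1 CPM in WT (log2 fold change -3.53 ± 0.97, SE), and its cKO value came from 10 reads of the first cKO library. Hars2, the histidyl-tRNA synthetase gene, had 60.6 and 67.9 CPM in cKO and 27.3 to 44.6 CPM in WT (log2 fold change 0.91 ± 0.39, SE), with both cKO libraries above all WT libraries. Genes of mitochondrial transcription and RNA stability had a median of -0.23. Slirp, an RNA-binding protein gene, was at -1.04 ± 0.53 (SE) and the tRNA processing gene Elac2 at -1.20 ± 0.74. Of the 9 transcription regulators of mitochondrial genes 4 were lower (median 0.02). The coactivator gene Ppargc1a had 9.08 and 14.9 CPM in cKO and 1.16 to 5.71 CPM in WT (log2 fold change 2.22 ± 0.96, SE), and Yy1, a zinc finger factor gene, had 19.7 and 17.7 CPM in cKO and 21.3 to 58.95 CPM in WT (log2 fold change -1.10 ± 0.51, SE). In edgeR no gene of any related list passed the adjusted threshold, and DESeq2 called Gtpbp10 and Fars2 (adjusted p = 0.016) among the lists described so far.

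Nuclear genes of complex I, which joins proteins made by these ribosomes, had a median of -0.99 (37 of 37 lower, 13 at an unadjusted p under 0.05), with Ndufa4, now known as a complex IV subunit, at -3.09 ± 0.88 (SE) and Ndufb9 at -2.46 ± 0.73. Cytosolic ribosomal protein genes had a median of -0.67 (85 of 89 lower, 10 at an unadjusted p under 0.05), with Rpl41 at -2.32 ± 0.82 and Rpl7l1, a homologue of Rpl7, at -1.35 ± 0.49. For these counts the share of all genes tested was 8.89%. Both cKO libraries lay below all WT libraries in 1 of 37 complex I genes and 2 of 89 cytosolic ribosomal protein genes, smaller shares than the 6.41% of all genes tested. The 13 protein genes of the mitochondrial genome, whose mRNAs these ribosomes translate, were all higher (median 1.34), with mt-Nd5 at 1.76 ± 0.53 and mt-Co1 at 2.24 ± 0.71. DESeq2, which called 3.08% of its genes lower and 0.387% higher, called 4 of 36 complex I genes with an adjusted p lower. Among them were Ndufa4 (adjusted p = 0.0099) and Ndufb9 (adjusted p = 0.014). It called 4 of 88 cytosolic ribosomal protein genes with an adjusted p lower, among them Rpl41 (adjusted p = 0.014). It also called 5 of the 13 mitochondrial genome genes higher, among them mt-Nd5 (adjusted p = 0.0024) and mt-Co1 (adjusted p = 0.0050).

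**Figure D4:**
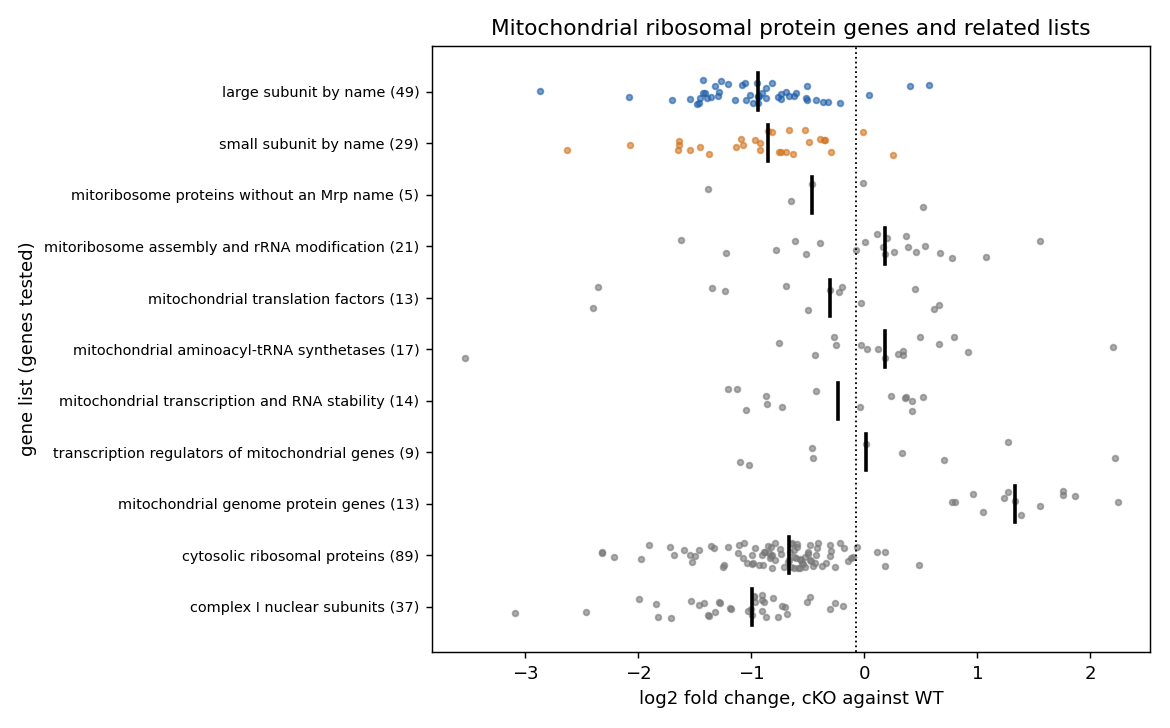
Log2 fold change (cKO against WT) of each gene tested in the large and small subunit and in 9 related lists; black bars are list medians and the dotted line is the median of all genes tested (-0.077). The subunits, complex I and the cytosolic ribosomal proteins lie mostly to the left of the line and the mitochondrial genome genes to its right.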

How the data were processed

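Laser-microdissected granulosa cells gave 8 libraries (2 cKO, 6 WT by title). The authors deposited, per library and row, the estimated count of reads, the TPM value and nominal and effective transcript lengths in bases. The submitters' processing notes list Salmon, HISAT2 and mm10; their versions, and which annotation was used, are not given in the sources used here. Per the labels' protocols the cDNA was amplified by Smart-seq2 and tagmented with Tn5, which does not mark strand.

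Of 36635 rows, 1548 carry only a transcript identifier (0.435% to 0.739% of reads) and were left out. Deposited estimated counts were rounded, filtered with filterByExpr (minimum count 10, minimum total 15; 15102 genes), scaled by TMM and compared with edgeR 4.0.16 (quasi-likelihood, group only, all 8 libraries) in R 4.3.3, with Benjamini-Hochberg adjustment over all genes; SEs come from the F statistic. DESeq2 1.42.0 and limma 3.58.1 were alternatives. Limma was run on log2(TPM + 1) of the deposited TPM and, as limma-voom with quality weights, on the filtered counts. A count of 0 allows up to 3 reads, 0.651 to 4.08 normalised CPM by library, for counting error only. On counts simulated for cKO against WT (15100 genes, 200 changed), 10% of 4-fold and 57% of 16-fold changes were called, with 3 false calls. Coordinates are from GENCODE M21 (GRCm38, as mm10); promoter sequences are from RefSeq.

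Members and lists were chosen with earlier results of these data known. Named were, per subunit, the 6 lower and 3 higher genes of smallest p and the 3 highest in TPM, 11 set genes, and 2 per related list by smallest p. Rps6k kinase rows were left out of the cytosolic list.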

Additional observations from a re-analysis of the deposited data

Results flagged for a closer look

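In 4 of 32 sets of 6 WT values examined (30 named genes, the summed level and the subunit ratio), 1 library stood apart by Dixon's test at the 95% level, which chance gives in about 1 set in 20. The gap to the nearest library, as a share of the range, was 0.629 for Mrpl33, where WT replicate 1 was low at 44.3 CPM. It was 0.700 for Mrpl19, where the same library was high at 294 CPM. It was 0.639 for Mrpl52, where WT replicate 2 was high at 388 CPM, and 0.689 for Mrps2, where WT replicate 6 was high at 122 CPM.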

How the results depend on the processing

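The median over the 78 genes was negative in all 24 settings, the reported one included, from -1.80 to -0.55, and 56 genes were lower in each of them. The count of genes past the adjusted threshold, 0 in the fit reported, was 4 without a filter and 4 in DESeq2, in both cases Mrpl20, Mrpl40, Mrps12 and Mrps2. Over all genes, edgeR called 478 without a filter and DESeq2 269, against 0. The count lower at an unadjusted p under 0.05, 19 (8.89% of all genes), became 30 without a filter (7.59% of all genes), 29 with limma on TPM (8.38%), 0 with detected genes as a covariate (2.31%), 3 in the libraries numbered 1 and 2 alone (1.22%, median -0.68), and 12 without cKO replicate 2 and WT replicate 1 (7.11%), where large minus small was -0.0081, against -0.095. With the replicate number as a block it was 1 (0.795% of all genes, median -0.72). Same-numbered deviations from the group means correlated at -0.29 and -0.17. With only 2 cKO libraries their deviations mirror each other, so these values cannot decide whether the numbers pair the libraries. Leaving out each library gave counts from 4 to 41, medians from -1.80 to -0.59, large minus small differences from -0.46 to -0.046, and 0 genes past the adjusted threshold or higher at an unadjusted p under 0.05; the low and high counts come without cKO replicates 2 and 1, respectively, and the count without WT replicate 1 was 35. The large minus small difference turned to 0.055 with limma on TPM and 0.041 with detected genes as a covariate. The subunit ratio of 0.946 became 1.05 in TPM. Mrpl38 turned to -0.10 with the length offset, -0.042 with the replicate block, -0.32 with detected genes as a covariate and -0.12 in the libraries numbered 1 and 2. With that covariate Mrps26 turned to -0.55, Mrps24 to 0.25 and Mrps36 to 0.21, and Mrpl23 turned to -0.55 when summed with its pseudogene. Leaving out 1 library moved Mrpl23 between -0.066 and 0.90 and Mrpl38 between -0.17 and 0.33. Apart from the pseudogene sum and the smaller sets of libraries, the cause was not tested. Depth limits cKO replicate 2 most, where 3 reads are 4.08 CPM.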
